A study of Homo sapiens with 3 samples.

Results

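The genes described are the matrix metalloproteinases (MMPs), the ADAM and ADAMTS proteases and the tissue inhibitors of metalloproteinases (TIMPs), measured by RNA sequencing in RCC4 cells. Members were taken by symbol, as every row of the gene table named MMP, ADAM or ADAMTS with a number (a letter was allowed after an MMP number) or TIMP1 to TIMP4. This gave 69 of 60605 rows, made up of 24 MMP, 22 ADAM, 19 ADAMTS and 4 TIMP genes, and 3 of the rows (MMP23A, ADAM5 and ADAM6) are annotated as pseudogenes. RCC4 is an established human cell line from a clear cell kidney tumour without functional VHL, and its cells had been transduced with a lentiviral Cas9 vector. All 3 libraries belong to 1 group of biological replicates, treated with IFN-gamma at 1000 U/mL and TNF at 25 ng/mL for 24 h, with 3 flasks for each replicate. Untreated cells were not analysed here, and what is given are levels in treated cells and not responses to the cytokines.

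MMPs, ADAMs and ADAMTS proteases are metzincins, zinc-dependent endopeptidases made as inactive precursors. MMPs cut collagens, gelatin and other matrix proteins, the membrane-anchored ADAMs release the outer parts of cytokines, receptors and adhesion molecules from the cell surface, and the secreted ADAMTS enzymes process procollagens, proteoglycans and fibrillin-rich matrix. TIMPs bind the active site of these enzymes, and TIMP3 also blocks several ADAM and ADAMTS proteases. In kidney tumours such enzymes take part in matrix turnover, invasion and the shedding of growth factors and TNF receptors.

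Gene-assigned reads came to 29199806, 26264283 and 33458691 in replicates 1, 2 and 3, of which the members took 0.112%, 0.152% and 0.160%. Of 11 renal epithelial or renal carcinoma markers, 9 were detected. Among those of the proximal tubule, CUBN was detected with 42, 48 and 58 reads, while AQP1 and LRP2 each had 0, 2 and 0. For AQP1 50.4% of the exon length lies inside other genes. Of 16 markers of other cell types, only COL1A1 was detected, at 0.754 ± 0.0931 RPKM (SD, n = 3). PDGFRB, the next in level, had 32, 14 and 44 reads and CDH5 of endothelium 4, 8 and 6. PTPRC and CD3E of leukocytes and LUM of fibroblasts were listed at 0. Replicate 1 stood apart from replicates 2 and 3 along transcript GC content, and values that rest on it are given with each library below. Nothing but the labels says that the replicates are separate cultures, so the SDs measure the spread between these 3 samples.

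A gene was called detected at 1 CPM or more in every library, where CPM is the usual depth-scaled read count, here with TMM scaling. Of the 69 members 24 (34.8%) were detected, against 51.4% of 19861 protein-coding genes. Among the 66 protein-coding members the share was 36.4%. By family, 4 of 24 MMPs, 8 of 22 ADAMs, 11 of 19 ADAMTS genes and 1 of 4 TIMPs were detected. Another 5 members, MMP7, MMP25, ADAM18, ADAM32 and ADAMTS17, reached 10 reads in some library without being detected. The other 40 stayed under 10 reads in every library, and 29 of these were listed at 0 reads throughout. Without replicate 1 the number detected was 25, the addition being ADAM18.

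**Figure D1:**
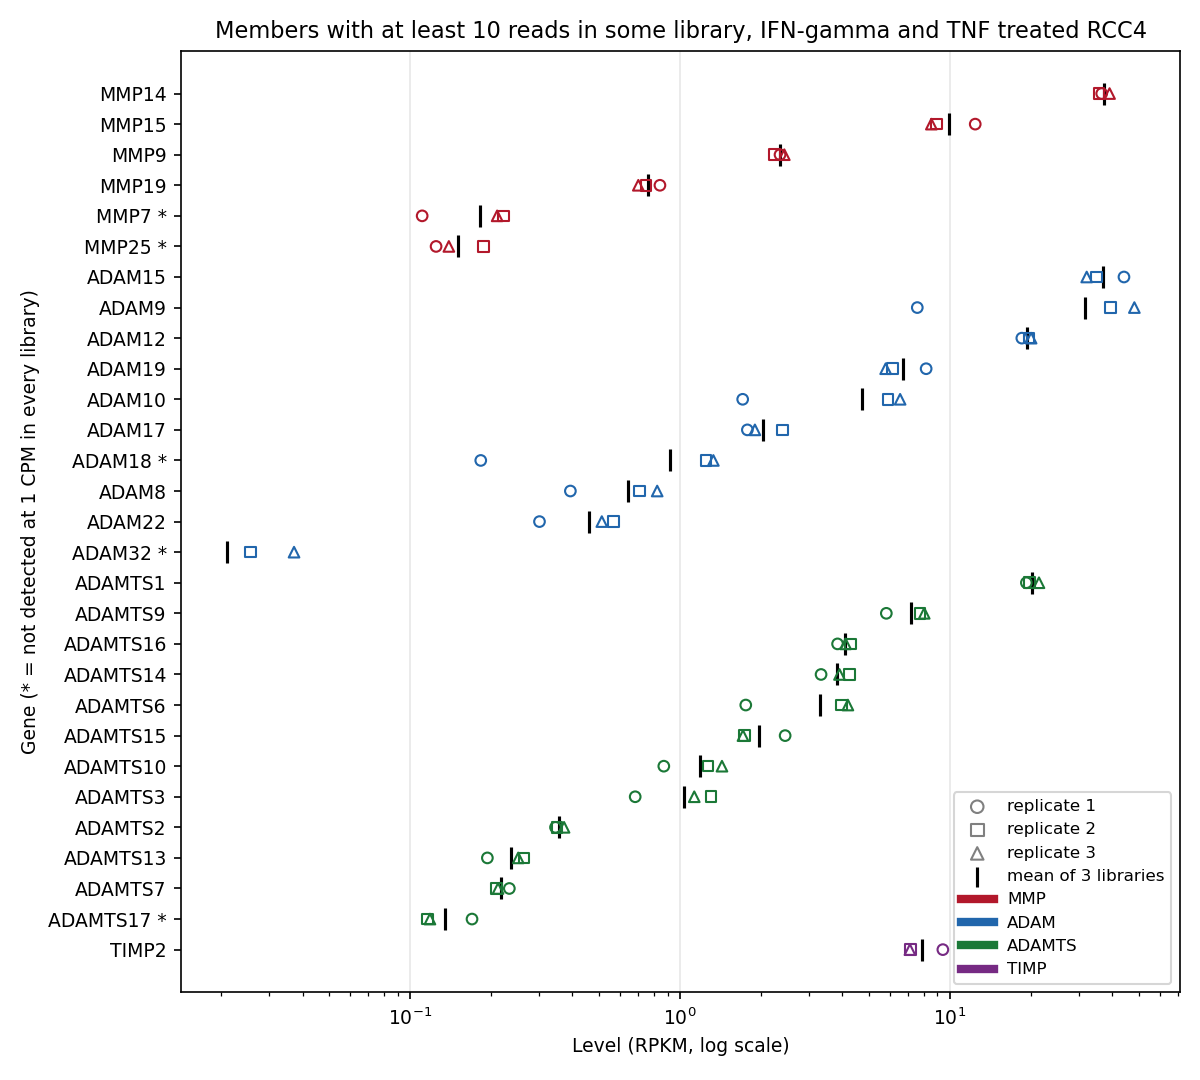
Level of each of the 29 members with at least 10 reads in some library, in RPKM on a log axis, with open symbols for replicates 1, 2 and 3, a black bar for their mean and colour for the family. MMP14, ADAM15 and ADAM9 have the highest means, replicate 1 lies far to the left for ADAM9, ADAM10 and ADAM18, and ADAM32 has no symbol for replicate 1 because it had 0 reads there.

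The proteases share the zinc-binding site of the catalytic domain, in which 3 histidines hold the zinc ion. Coding sequences of GENCODE 29 were searched for this metzincin motif in frame, and the matching 33 bases are shown for the detected enzymes on which the results turn, with the histidine codons in capitals.
MMP14: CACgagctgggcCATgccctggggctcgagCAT
MMP15: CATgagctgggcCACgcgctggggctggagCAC
MMP9: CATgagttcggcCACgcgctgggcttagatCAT
ADAM15: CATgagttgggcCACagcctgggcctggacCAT
ADAM12: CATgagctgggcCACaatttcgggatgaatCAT
ADAM17: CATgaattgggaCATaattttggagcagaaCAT
ADAMTS1: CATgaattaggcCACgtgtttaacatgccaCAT
On GRCh38 these lie at chr14:22843283-22843315 (plus strand, exon 5 of 10) for MMP14, chr16:58040563-58040595 (plus strand, exon 5 of 10) for MMP15 and chr20:46012453-46012485 (plus strand, exon 8 of 13) for MMP9. For ADAM15 the stretch is chr1:155056995-155057027 (plus strand, exon 11 of 23), for ADAM12 chr10:126094059-126094091 (minus strand, exon 11 of 23) and for ADAM17 chr2:9510078-9510110 (minus strand, exon 11 of 19). The ADAMTS1 stretch starts in exon 3 of 9 and is interrupted by an intron, within chr21:26841143-26841867 (minus strand). Of 66 members with a coding sequence, 49 held the motif with a glycine at its centre, 4 (ADAMTS1, ADAMTS4, ADAMTS9 and ADAMTS15) with an asparagine there, and 1 (ADAMTS8) with a serine. The 12 without it were the 4 TIMPs and 8 ADAMs, namely ADAM2, ADAM7, ADAM11, ADAM18, ADAM22, ADAM23, ADAM29 and ADAM32. Of the 24 detected members 19 had the glycine form, 3 the asparagine form and 2 (TIMP2 and ADAM22) no motif. Among the ADAMs 1 of 8 without the motif and 7 of 12 with it were detected, against 51.4% of all protein-coding genes. Of those without it, ADAM7 lies wholly inside other genes and ADAM18 missed detection in replicate 1 alone. A link between motif and detection was not tested.

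Among the MMPs, the membrane-type enzymes MMP14 and MMP15 had the highest levels, and most secreted enzymes had almost no reads. To compare genes, CPM was divided by exon length in kilobases, which gives RPKM. MMP14 (chr14:22836557-22849027, plus strand), the membrane-anchored collagenase that activates pro-MMP2, stood at 36.5, 35.7 and 39.1 RPKM in replicates 1, 2 and 3, a mean of 37.1 ± 1.73 RPKM (SD, n = 3). The 3 libraries lay close together before any correction for GC content. After that correction, described below, replicate 1 was at 76.4% of the mean of replicates 2 and 3. MMP15 (chr16:58025566-58046901, plus strand), a related membrane-type MMP, had 12.4, 8.91 and 8.54 RPKM, highest in replicate 1. MMP14 exceeded MMP15 in each library, by 1.55, 1.99 and 2.18 on the log2 scale (mean 1.91 ± 0.32), which is 3.75-fold and beyond the replicate spread. A difference is called beyond the replicate spread when all 3 libraries have the same sign and the mean is over 2 SD. With 3 libraries of 1 group this is a description, since an exact sign test could not go below 0.25.

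Of the other membrane-type MMPs, MMP25 had 14, 21 and 20 reads with 67.1% of its exon length inside the span of its antisense gene MMP25-AS1, which had 2 reads in each library. MMP17 had 2, 2 and 0 reads, MMP16 was listed at 0, and MMP24, whose exons all lie inside the span of MMP24OS, was listed at 0. Thus 2 of 6 membrane-type genes were detected, against 51.4% of all protein-coding genes.

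Of the gelatinases, MMP9 (chr20:46008908-46016561, plus strand), which cuts denatured collagen and type IV collagen, had 149, 142 and 198 reads. Its level was 2.35, 2.24 and 2.44 RPKM in replicates 1, 2 and 3, and these libraries differed little. The antisense gene SLC12A5-AS1 covers 31.8% of its exons and had 0, 4 and 4 reads. MMP2, the other gelatinase and the substrate of MMP14, was listed at 0 in all libraries, and 3.53% of its exon length is shared with other spans. MMP19, a secreted enzyme of basement membranes, was the last of the 4 detected MMPs, at 0.843, 0.749 and 0.701 RPKM.

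None of the collagenases (MMP1, MMP8 and MMP13), stromelysins (MMP3, MMP10 and MMP11) or matrilysins (MMP7 and MMP26) was detected, against 51.4% of all protein-coding genes. Of these 8 genes only MMP7 had reads, 7, 14 and 17 in replicates 1, 2 and 3. MMP7 belongs to a cluster of 9 MMP genes within 435 kb of chromosome 11 (chr11:102520508-102955734), together with MMP20, MMP27, MMP8, MMP10, MMP1, MMP3, MMP12 and MMP13. In this cluster 7 genes were listed at 0 reads throughout, and MMP20, the tooth enamel protease, had 0, 2 and 1 reads. MMP1 and MMP10 lie wholly inside the span of the pseudogene WTAPP1 on the opposite strand, which was itself listed at 0, and 22.4% of the exons of MMP3 do. MMP7, MMP27, MMP8, MMP12 and MMP13 overlap no other gene. A count of 0 allows up to 3 reads, or 0.0862 to 0.110 CPM depending on the library, and this limit covers counting error only. It takes each read as independent and is too low if reads are mates of pairs. A 0 need not mean absence even outside other genes, since SDHA, which every respiring cell uses, was listed at 0 throughout although 0% of its exon length is shared with other genes. Of the remaining MMPs, MMP21 had 0, 0 and 4 reads, MMP23A 2, 0 and 4, and MMP23B and MMP28 were listed at 0. The exons of MMP28 all lie inside the span of TAF15, which had 4307, 4105 and 5920 reads.

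Detected ADAMs ran from 0.461 to 37.0 RPKM. ADAM15 (chr1:155050566-155062775, plus strand), an adhesion-related sheddase with an integrin-binding motif, stood at 44.2, 34.9 and 32.1 RPKM, highest in replicate 1 (mean 37.0 ± 6.31). Its mean did not differ from that of MMP14 beyond the replicate spread (log2 MMP14/ADAM15 0.01 ± 0.28), but with the length of the transcript with the longest coding sequence ADAM15 was above MMP14 beyond it (-0.88 ± 0.28). ADAM9 (chr8:38996869-39105144, plus strand), a broadly expressed sheddase, had 7.58, 39.3 and 48.3 RPKM and was far lower in replicate 1. The ADAM15 to ADAM9 ratio accordingly had no fixed sign, with log2 values of 2.53, -0.17 and -0.59 (mean 0.59 ± 1.69), and without replicate 1 its mean was -0.38. ADAM12 (chr10:126012381-126388455, minus strand), which cuts insulin-like growth factor binding proteins, had 18.5, 19.7 and 19.999 RPKM and varied little. ADAM19, known for the shedding of neuregulins, had 8.17, 6.14 and 5.78 RPKM, again highest in replicate 1.

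The main sheddases of Notch and TNF, ADAM10 and ADAM17, had means of 4.72 and 2.03 RPKM over all exons. With the length of the transcript with the longest coding sequence these means were 6.67 and 4.94 RPKM. ADAM10 (chr15:58588807-58749978, minus strand), which cuts Notch, cadherins and CD44, had 1.71, 5.90 and 6.54 RPKM, with replicate 1 far below the others. ADAM17 (chr2:9488486-9556732, minus strand), the TNF-converting enzyme, had 1.78, 2.40 and 1.90 RPKM, so that replicates 1 and 3 were close and replicate 2 was highest. The log2 ratio of ADAM10 to ADAM17 was -0.05, 1.26 and 1.74 in replicates 1, 2 and 3 (mean 0.98 ± 0.93) and did not exceed the replicate spread. Without replicate 1 the mean was 1.497 and exceeded it, and with the length of the transcript with the longest coding sequence in place of all exons it was 0.22. ADAM9 exceeded ADAM10 in each library, by 2.09, 2.72 and 2.86 (mean 2.55 ± 0.41), beyond the replicate spread. The exons of ADAM17 lie to 23.7% inside the span of IAH1 on the opposite strand, a gene with 1510, 1351 and 1816 reads. For ADAM10 17.8% of the exon length lies inside an antisense gene with 2, 6 and 10 reads.

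Lower in the order were ADAM8, a sheddase of leukocytes, at 0.393, 0.709 and 0.824 RPKM, and ADAM22, an inactive ADAM known as a neuronal receptor for LGI1, at 0.302, 0.567 and 0.514 RPKM. Both were lowest in replicate 1. ADAM18, a testis gene without the zinc motif, had 19, 130 and 177 reads and fell short of detection through replicate 1 alone. ADAM32 had 0, 7 and 13 reads and ADAM11 8, 2 and 2, while ADAM2 and ADAM33 had 2 reads each over all libraries. The 9 ADAM genes listed at 0 were ADAM5, ADAM6, ADAM7, ADAM20, ADAM21, ADAM23, ADAM28, ADAM29 and ADAM30. Of these, ADAM7, ADAM20, ADAM21 and ADAM28 have 98.3% or more of their exons inside other genes, which had at most 8 reads in any library.

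Of the ADAMTS genes 11 of 19 (57.9%) were detected, near the 51.4% of all protein-coding genes. ADAMTS1 (chr21:26835747-26845409, minus strand), a versican- and aggrecan-cleaving enzyme, led at 19.2, 19.8 and 21.4 RPKM with little spread. It did not differ from ADAM12, next in the order, beyond the replicate spread (log2 0.05 ± 0.04, of 1 sign in all libraries but under 2 SD), and exceeded it with the transcript length (0.18 ± 0.04). ADAMTS9 (chr3:64515654-64688000, minus strand), a second versican-cleaving enzyme, had 5.82, 7.74 and 8.04 RPKM and was lowest in replicate 1. ADAMTS15, which also cuts versican, had 2.45, 1.73 and 1.71 RPKM and was highest there. The aggrecanases ADAMTS4 and ADAMTS8 had 4 and 2 reads over all libraries, and ADAMTS5, another aggrecanase, with 83.1% of its exons inside a gene on the opposite strand, was listed at 0.

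All 3 procollagen N-proteinases were detected, against 51.4% of all protein-coding genes, and 3 genes are too few to read a share from. ADAMTS14 stood at 3.33, 4.24 and 3.90 RPKM, ADAMTS3 at 0.683, 1.30 and 1.13 RPKM and ADAMTS2 at 0.346, 0.350 and 0.372 RPKM. ADAMTS16, a kidney-expressed member, had 3.84, 4.28 and 4.11 RPKM, close in all libraries. ADAMTS6 and ADAMTS10, related enzymes that act on fibrillin microfibrils, had 1.75, 3.96 and 4.19 RPKM and 0.872, 1.27 and 1.43 RPKM, both lowest in replicate 1. ADAMTS13, which cuts von Willebrand factor, had 30, 41 and 50 reads, and ADAMTS7, which cuts COMP, 49, 44 and 57. ADAMTS17 had 38, 26 and 34 reads and missed detection narrowly, at 1.40, 0.957 and 0.977 CPM. ADAMTS12 and ADAMTS20 had 2 reads each over all libraries. ADAMTS18 and ADAMTS19, with 55.2% and 87.9% of their exon length inside other genes, were listed at 0.

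Ordered by mean RPKM over all exons, the first 8 detected members were MMP14, ADAM15, ADAM9, ADAMTS1, ADAM12, MMP15, TIMP2 and ADAMTS9. Of the 23 pairs of neighbours in the order of the 24 detected members, 4 differed beyond the replicate spread, the steps from ADAM12 to MMP15 (log2 0.97 ± 0.35), from MMP15 to TIMP2 (0.32 ± 0.07), from ADAM8 to ADAM22 (0.39 ± 0.18) and from ADAMTS2 to ADAMTS13 (0.44 ± 0.15). The other 19 neighbouring pairs did not, and ADAM9 was below MMP15 in replicate 1 although its mean was higher. The order depends on the length used. With the length of the transcript with the longest coding sequence, ADAM15 at 82.7 and ADAM9 at 57.1 RPKM were above MMP14 at 44.4 RPKM. With that length 8 of the 23 differences changed sign, among them MMP15 to TIMP2 (-0.24 ± 0.07) and ADAM8 to ADAM22 (-0.99 ± 0.17), both beyond the spread in the other direction. The steps from ADAM12 to MMP15 and from ADAMTS2 to ADAMTS13 were beyond it in the same direction with either length. The median level of the detected members was 3.56 RPKM, and of all 69 members, pseudogenes included, 0.0066 RPKM, against 0.482 RPKM for all protein-coding genes.

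Of the inhibitors, TIMP2 was the one with reads. TIMP2 (chr17:78852977-78925387, minus strand), which inhibits MMPs and forms the complex through which MMP14 activates pro-MMP2, had 1441, 1092 and 1394 reads and 9.42, 7.14 and 7.11 RPKM (mean 7.89 ± 1.33). MMP14 exceeded TIMP2 in each library, by 1.94, 2.31 and 2.44 on the log2 scale (mean 2.23 ± 0.26), which is 4.69-fold and beyond the replicate spread. For TIMP1, TIMP3 and TIMP4 no library held a read. Their exons all lie inside synapsin genes on the opposite strand. TIMP1 lies inside SYN1 (chrX:47571898-47619943), TIMP3 inside SYN3 (chr22:32512552-33058372) and TIMP4 inside SYN2 (chr3:12004402-12191400). The reads listed for the synapsin genes were 10, 4 and 6 for SYN1, 0, 4 and 0 for SYN3 and 0, 2 and 0 for SYN2. For TIMP2 other spans take in 14.1% of the exon length. The zeros of TIMP1, TIMP3 and TIMP4 are therefore given only as listed, and the part that this overlap has in them was not tested. Of 16 fixed gene pairs 6 could be measured, and 9 of the other 10 hold TIMP1 or TIMP3.

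**Figure D2:**
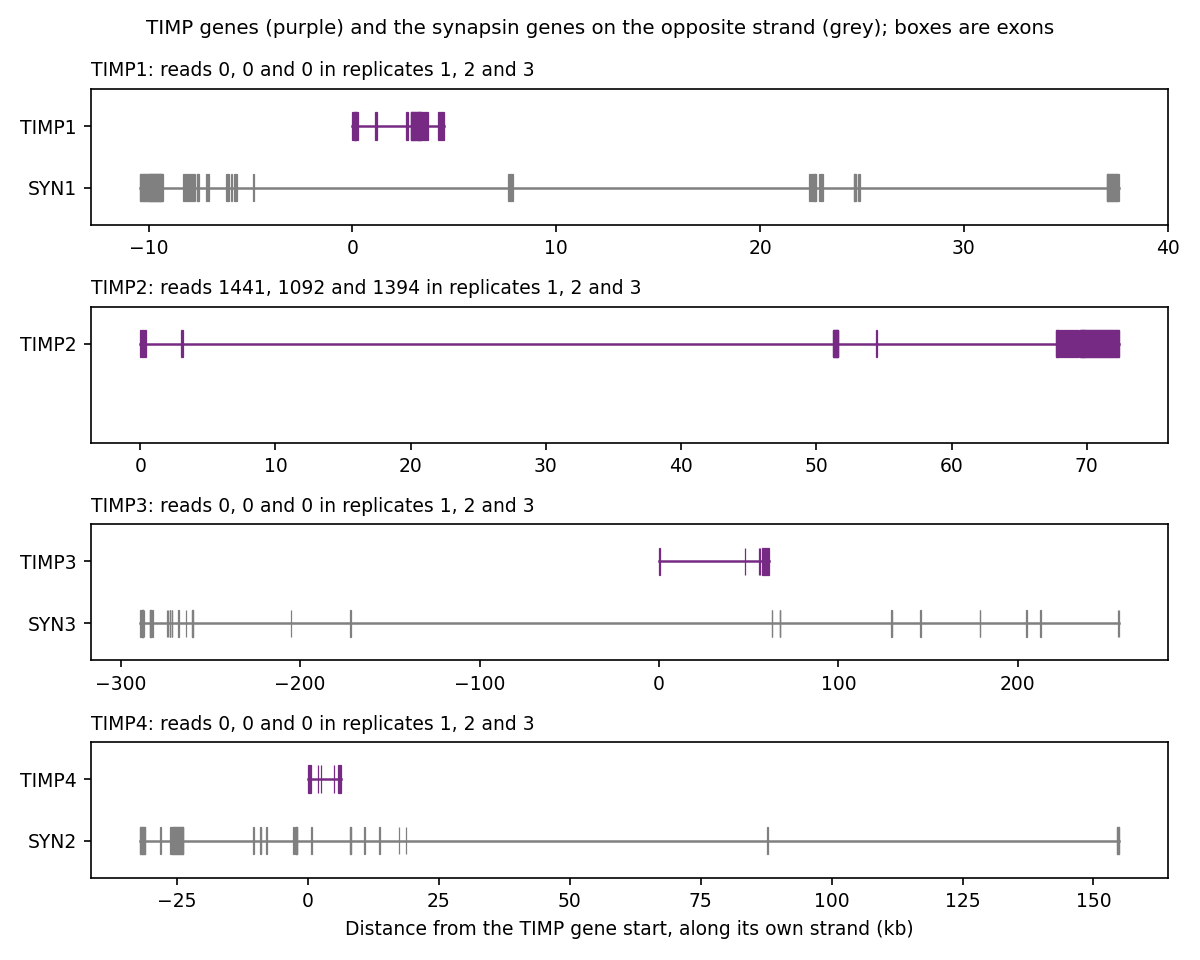
Each TIMP gene (purple) above the synapsin gene on the opposite strand (grey), with distance from the TIMP start in kb and exons as boxes; other overlapping genes are not drawn. TIMP1, TIMP3 and TIMP4, listed at 0 reads, lie inside the synapsin spans, whereas TIMP2 with 1092 to 1441 reads has no such host.

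Members are called covered where other genes' spans take in 80% or more of the exon length. Of the 13 covered members 0 were detected and 13 were listed at 0 reads. For 12 of the 13 the overlap is on the opposite strand, the exception being ADAM20. Among all protein-coding genes 8.69% of those covered were detected. Of the 56 members that are not covered, 24 (42.9%) were detected and 16 were listed at 0, against 59.5% detected among protein-coding genes not covered. Of the 33 members that overlap no other gene 12 (36.4%) were detected and 9 were listed at 0, against 52.4% detected among such protein-coding genes. Both the 56 and the 33 include the pseudogenes MMP23A, ADAM5 and ADAM6, none of them detected. These lower the member shares, while the compared shares hold protein-coding genes only.

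**Figure D3:**
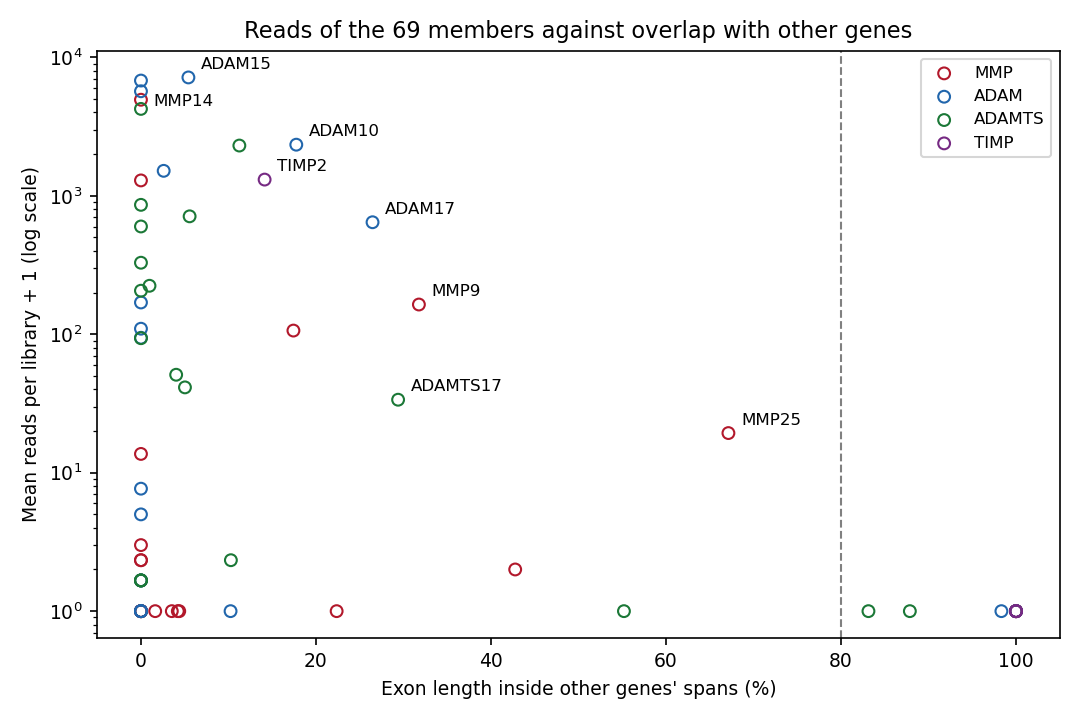
Mean reads per library plus 1, on a log axis, against the percentage of exon length inside other genes' spans for the 69 members, coloured by family, with a dashed line at 80%. All 13 members to the right of the line are listed at 0 reads, and those to the left range from 0 upwards, with MMP14 at 4334 to 6065.

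Replicate 1 differed from the other libraries most for members with GC-poor transcripts. Among the 19 members averaging 5 CPM or more, 3 (15.8%) had in replicate 1 less than 50% of the mean of replicates 2 and 3, against 13.7% of 9095 such protein-coding genes, so the share was near the background. These were ADAM9 at 17.3%, ADAM10 at 27.5% and ADAMTS6 at 43.0%. None of the 19 was more than 2-fold higher in replicate 1, against 0.044% of the protein-coding genes. The 6 members with a transcript GC content under 45%, which are ADAM10, ADAM17, ADAM9, ADAM22, ADAMTS6 and ADAMTS3, were all lower in replicate 1, with log2 ratios of -2.53 to -0.27. The 13 members above 45% ran from -0.63 to 0.51. Across the 19 members Spearman's rho between GC content and this ratio was 0.66 and Pearson's r was 0.68, against a rho of 0.778 over all such genes; the points share the same libraries, and genes are not replicates. After the median ratio of each of 20 GC bins was removed, 2 members were below 50%, ADAM9 at 33.1% and ADAMTS10 at 47.7%, while ADAM10 was at 62.0% and ADAMTS6 at 55.8%. ADAM17 turned from 82.7% to 157%, whereas ADAM22 at 78.6% and ADAMTS3 at 65.7% stayed lower in replicate 1. Among members above 45% GC, the correction took MMP14 from 97.7% to 76.4% and MMP9 from 101% to 76.2%. It took ADAMTS16 from 91.5% to 73.9%, ADAM15 from 132% to 97.8% and MMP15 from 142% to 105%.

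**Figure D4:**
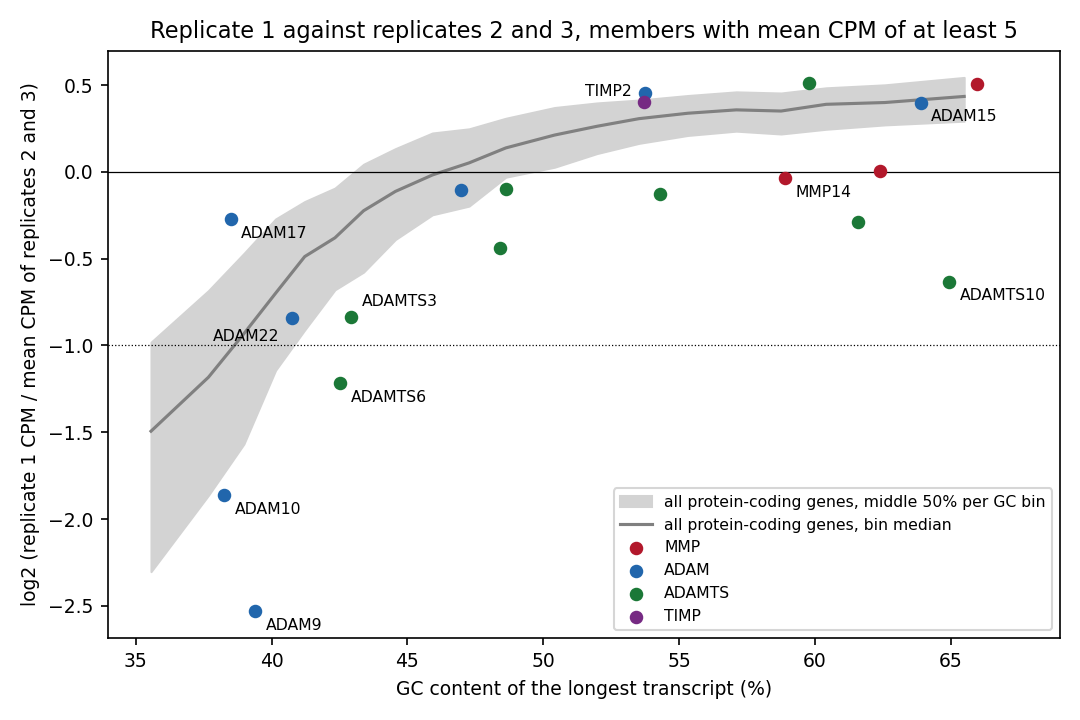
Log2 of replicate 1 over the replicate 2 and 3 mean, against transcript GC content for the 19 members averaging 5 CPM or more, over the median (grey line) and middle 50% (grey band) of all protein-coding genes. ADAM9 and ADAM10 lie lowest at a GC content of 39.4% and 38.3%, and ADAM17, at 38.5%, lies above the band.

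Genes that act on these enzymes were mostly detected. Of 13 regulators of ADAM maturation and traffic 11 were detected, with a list median of 5.18 RPKM, against 51.4% detected and a median of 0.482 RPKM for all protein-coding genes. TSPAN17, a tetraspanin partner of ADAM10, stood at 40.7 ± 7.87 RPKM, the convertase FURIN, which removes the prodomains, at 33.2 ± 6.12, RHBDF2 (iRhom2), which escorts ADAM17 to the surface, at 31.4 ± 1.74 and FRMD8, an iRhom partner, at 20.6 ± 5.37 RPKM (SD, n = 3 each). The lowest was PCSK5 with 0, 4 and 4 reads. ADAM17 was below RHBDF2 in each library, by -4.11, -3.71 and -3.89 on the log2 scale (mean -3.90 ± 0.20), beyond the replicate spread. This ratio was not computed with the length of the transcript with the longest coding sequence, which puts ADAM17 at 4.94 RPKM.

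Of 14 genes that control MMPs outside the cell or the plasmin system that activates them, 9 were detected, against 51.4% of all protein-coding genes. Their median was 10.7 RPKM. BSG, the MMP inducer basigin, stood at 247 ± 41.4 RPKM. THBS1, which binds MMPs, was at 180 ± 14.7 RPKM and CD63, a partner of TIMP1, at 164 ± 28.0 RPKM. PLG, TFPI2 and THBS2 were listed at 0, and TFPI2 is covered. Of 17 other metalloproteinases and ADAMTS-like genes 9 were detected, near the 51.4% of all protein-coding genes, with a median of 0.241 RPKM. ECE1 stood at 21.96 ± 2.31, BMP1, the procollagen C-proteinase, at 19.0 ± 0.834, ADAMTSL3 at 6.74 ± 0.858 and ADAMTSL5 at 3.53 ± 1.04 RPKM. MEP1A and ADAMTSL2 were listed at 0, as were ECE2, MEP1B and ADAMDEC1, which are covered.

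Substrates of the ADAMs were detected for 22 of 31 genes, against 51.4% of all protein-coding genes, with a median of 13.0 RPKM. APP stood at 177 ± 18.0, the syndecan SDC4 at 156 ± 29.3, the receptor kinase AXL at 141 ± 40.7 and ICAM1 at 132 ± 13.8 RPKM. ICAM1 was detected although 81.5% of its exon length is inside other genes' spans. TNF, the substrate that named ADAM17, had 6, 2 and 10 reads, and the lowest of the list, NOTCH3, had 0, 2 and 0. Of 15 matrix substrates of ADAMTS enzymes 4 were detected, against the same 51.4%. These were FN1 at 168 ± 18.3, MATN2 at 14.9 ± 3.69, VCAN at 10.2 ± 5.17 and COL1A1 at 0.754 ± 0.0931 RPKM. VCAN, the versican that ADAMTS1 and ADAMTS9 cut, had 1763, 4825 and 7348 reads and was lowest in replicate 1. ACAN, the cartilage substrate aggrecan, had 0, 2 and 0 reads, and COL1A2, COL3A1, FBN2 and COMP were listed at 0.

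Of 17 transcription factors known to act on MMP genes 13 were detected, against 51.4% of all protein-coding genes, with a median of 22.005 RPKM. The AP-1 subunits FOSL1, JUN and JUND stood at 142 ± 25.8, 92.3 ± 15.0 and 90.8 ± 18.4 RPKM. FOS had 4, 2 and 4 reads. JUNB, FOSB and ETV4, all 3 covered, were listed at 0.

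The promoter windows of detected members held more CpG dinucleotides at the median than those of the others. RefSeq windows on GRCh38.p14, from 250 bases before to 50 after the gene start, were matched for 39 of the 66 protein-coding members. Windows are shown, with each CpG in capitals, for ADAM15, a well-expressed gene rich in CpG, and for MMP14, which has few. The mean of MMP14 was near that of ADAM15 over all exons but lower with the transcript length. Windows of 2 MMP genes of the chromosome 11 cluster, MMP7 and MMP8, follow.
ADAM15: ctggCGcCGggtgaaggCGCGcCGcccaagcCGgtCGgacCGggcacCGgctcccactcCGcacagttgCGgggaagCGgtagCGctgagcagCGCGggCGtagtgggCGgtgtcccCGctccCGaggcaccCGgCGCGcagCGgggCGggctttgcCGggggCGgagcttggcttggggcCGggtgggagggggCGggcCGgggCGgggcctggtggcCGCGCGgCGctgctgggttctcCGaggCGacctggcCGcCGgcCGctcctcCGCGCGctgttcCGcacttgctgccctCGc
MMP14: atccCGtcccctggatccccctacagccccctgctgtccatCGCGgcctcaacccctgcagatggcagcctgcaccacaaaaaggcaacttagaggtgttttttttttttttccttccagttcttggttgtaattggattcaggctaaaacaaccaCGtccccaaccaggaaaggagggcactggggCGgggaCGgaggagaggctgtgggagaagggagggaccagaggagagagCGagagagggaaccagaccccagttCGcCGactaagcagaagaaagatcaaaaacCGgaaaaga
MMP7: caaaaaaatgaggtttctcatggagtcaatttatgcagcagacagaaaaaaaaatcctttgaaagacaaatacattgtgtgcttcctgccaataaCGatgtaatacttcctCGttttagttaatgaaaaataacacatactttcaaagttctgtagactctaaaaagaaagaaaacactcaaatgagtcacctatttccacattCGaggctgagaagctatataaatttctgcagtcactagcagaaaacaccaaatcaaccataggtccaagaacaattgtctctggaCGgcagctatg
MMP8: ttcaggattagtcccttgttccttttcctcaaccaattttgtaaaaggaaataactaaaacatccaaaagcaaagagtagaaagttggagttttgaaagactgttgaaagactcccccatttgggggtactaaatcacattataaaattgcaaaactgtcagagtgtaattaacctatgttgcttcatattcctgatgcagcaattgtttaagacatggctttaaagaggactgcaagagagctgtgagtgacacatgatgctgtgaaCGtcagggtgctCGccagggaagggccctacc
These are chr1:155051066-155051365 (plus strand) for ADAM15, chr14:22836335-22836634 (plus strand) for MMP14, chr11:102530698-102530997 (minus strand) for MMP7 and chr11:102724905-102725204 (minus strand) for MMP8, and they hold 44, 10, 4 and 2 CpG dinucleotides.

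The 16 detected members with a window had a median of 32.5 CpG dinucleotides (7 to 47), against 18 (0 to 41) in the 15 members that were neither detected nor covered. Over all protein-coding genes the medians were 27 in 8302 detected genes and 9 in 4962 genes neither detected nor covered, so a difference of the same direction was present in the background, and nothing particular to the family is read from it. The 5 cluster genes with a window had 2 to 4. An AP-1-like motif, TGANTCA with any base at N, was searched, and its reverse strand reads the same. It was present in 4 of the 39 windows (10.3%), against 5.73% of 15169 protein-coding windows. The match read TGAATCA in ADAMTS12, MMP10 and MMP20 and TGAGTCA in MMP7. Of the 16 detected members 0 had one, against 4.16% of detected protein-coding windows, so nothing is read from that 0. Of the 15 members neither detected nor covered 3 had one, against 8.02% of such protein-coding windows. In MMP7 and MMP10 the match starts 67 bases before the gene start. The STAT family motif TTCNNNGAA, also its own reverse strand, was in 0 of the 39 windows and in 6.96% of all. For the NF-kappa-B motif GGGNNTTTCC, searched on both strands, it was 0 of the 39 and 1.96% of all. A match or its absence in these windows is a description of the letters alone.

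**Figure D5:**
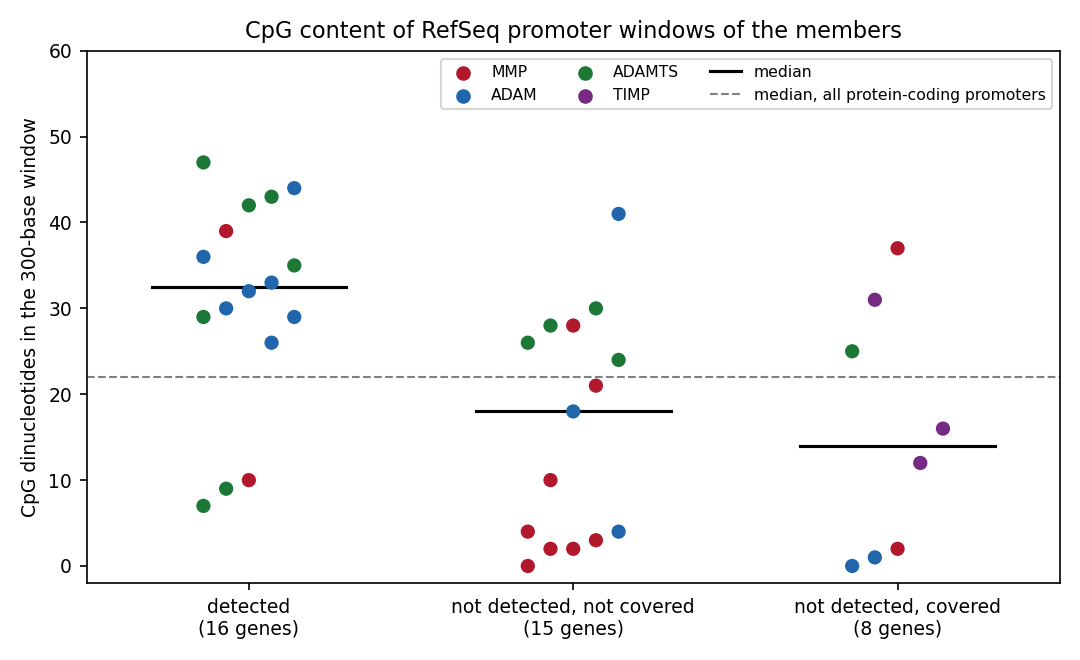
Number of CpG dinucleotides in the 300-base promoter window of each of the 39 members with a RefSeq window, by detection and coverage, coloured by family, with black lines for medians and a dashed line at the median of all protein-coding windows (22). Detected members have a median of 32.5, above the 18 of members neither detected nor covered and the 14 of covered members.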

How the data were processed

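Poly(A) RNA was sequenced with a directional kit, per the labels' protocols. The submitters' processing notes name the build hg38 and, among the tools, HISAT2 2.1.0, featureCounts 2.0.0, cutadapt 1.18 and FastQC. Which annotation, strand setting and options the counting used is not given in the sources used here. As read from the values, each deposited number is a signal, a gene's count over a size factor of its library: 100% of nonzero values were whole multiples of 1 read within 0.01 of a read. The recovered reads replaced the counts assumed at planning. Genes at 2 reads outnumbered those at 1 (1621 against 269 in replicate 1), so reads may be mates of pairs and not independent molecules.

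Gene identifiers were matched to GENCODE 29 for 58337 of 60605 genes (99.9% of reads). TMM scaling was done in edgeR 4.0.16 under R 4.3.3, and RPKM used the length of all exons merged. Log2 ratios used a pseudocount of 0.1 RPKM. Overlap was the share of merged exon length that spans of other genes take in, whatever their strand, and GC content was that of the longest transcript. With 1 group no test between groups was possible. Every member with at least 10 reads in some library was named, and list genes as the 4 highest and the lowest, of which some are not reported here; other names were chosen after their values were seen. Members and lists were chosen with earlier results of these data known. Alternatives were DESeq2 1.42.0 size factors, other thresholds and lengths, GC correction and leaving out each library. The count below 50% in replicate 1 was tested on simulated data over 9102 genes. There 100% of genes lowered 4-fold were found, which a drop so far past the 50% limit makes near certain. The simulated spread between libraries was a fixed setting and was not estimated from these data. With a planted GC trend 2.92% of unchanged genes were called before GC correction and 0% after it. The planted trend was milder than that of the data, where 13.7% of protein-coding genes averaging 5 CPM or more were below 50%. The shares from the simulation therefore need not hold for these data.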

Additional observations from a re-analysis of the deposited data

How the results depend on the processing

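The number of detected members, 24, was 14 at a threshold of 10 CPM; it was 28 at 0.1 CPM, 27 at 10 reads in every library and 24 with DESeq2 size factors, with the authors' scaling or without covered members. The 3 members below 50% in replicate 1 became 5 with no filter beyond 10 reads, where ADAM18 and ADAM32 entered; the number was 4 at a mean of 1 CPM and 2 with GC correction. Leaving out a replicate in turn, the log2 ratio of ADAM15 to ADAM9 ran from -0.38 to 1.178, reversing without replicate 1, and that of ADAM10 to ADAM17 ran from 0.60 to 1.497, past the replicate spread without replicate 1. The other 51 of 53 alternatives for the 6 ratios kept direction and side of the spread. For ADAM17 to RHBDF2 the transcript length was not among them. Of 24 levels, 16 moved by more than 1 SD with the length of the transcript with the longest coding sequence, an alternative chosen after seeing the data, by up to 4.22-fold for ADAM22, and 4 with exon length outside other genes. At most 21 reads in a library stand behind MMP7, MMP25 and ADAM32. No paired analysis was possible because all libraries belong to 1 group.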
